A study of Drosophila melanogaster with 15 samples.

Results

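Nplp2 (FBgn0040813) is 1 of 17481 D. melanogaster gene identifiers counted by RNA-seq in Kc167 cells, and 1 of the 11424 genes with enough reads to be tested. It was chosen because it had the largest upward difference between DOM-A and DOM-B RNAi among the 622 genes that were called higher (7.28% of all genes were called so before the next conditions), were higher in 3 of 3 same-numbered pairs of libraries and had an average of 100 or more normalized counts over all libraries. A gene is called where its adjusted p in edgeR was under 0.01. The values of DOM-A and DOM-B RNAi, and the comparisons made with them, therefore chose the gene and are given as a description without a test. TIP60 and H2A.V RNAi entered the choice through the minimum average over all libraries, which the DOM-A RNAi reads of Nplp2 meet without them. They also entered through the single fit of all 15 libraries, which set the spread behind the call. Their own differences did not choose the gene, and their comparisons were tested. The order of the levels did not follow the notion of a gene that depends on DOM-A for its expression: Nplp2 mRNA was higher, not lower, in the libraries of DOM-A RNAi, and it was also higher in those of TIP60 RNAi.

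Kc167 is a cultured D. melanogaster line of embryonic origin with features of blood cells. The cells received dsRNA against GST or GFP (together CTRL), H2A.V, TIP60, the DOM-A isoform or the DOM-B isoform, with 3 biological replicates per group (15 libraries). All groups were otherwise untreated cells of this single line, and D. virilis cells were added to every sample before RNA extraction as a reference. CTRL used GST dsRNA in replicates 1 and 3 and GFP dsRNA in replicate 2, so which dsRNA was used in CTRL and the replicate number cannot be told apart.

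Nplp2 encodes a small secreted precursor protein. It was named as a neuropeptide-like precursor from peptides found in the nervous system, and its product has also been described in haemolymph, the insect's circulating fluid, as an exchangeable apolipoprotein that carries lipid. The domino gene gives rise to both DOM isoforms by alternative splicing. DOM-B is the ATPase of the SWR1-type complex that places the histone variant H2A.V in chromatin, whereas DOM-A belongs to a NuA4-type complex together with the histone acetyltransferase TIP60.

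The gene lies on the plus strand of chromosome 3L, from position 13356376 to position 13357223 of BDGP6, and spans 848 nt. The annotation gives it 3 transcripts of 3 exons each, all ending at the same position. Transcripts RA and RB encode the same 86 codons, and RB starts 158 nt before RA, which lengthens the 5′ UTR from 65 to 223 nt. Transcript RC encodes 119 codons and has 30 nt after the last of them, against 129 nt in RA and RB. The counts are per gene and do not separate these transcripts. No annotated gene overlaps Nplp2 on either strand.

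The level of Nplp2 fell into a low range in CTRL, DOM-B and H2A.V RNAi and a high range in TIP60 and DOM-A RNAi. Levels are given as normalized counts, which are reads on the gene's strand divided by a size factor from the D. virilis reads of the same library. CTRL libraries had 157, 276 and 213 in replicates 1, 2 and 3 (mean 215 ± 59.9 SD, n = 3). DOM-B RNAi libraries had 279, 297 and 276 (284 ± 11.2). H2A.V RNAi libraries had 99.6, 150 and 151 (134 ± 29.4). The DOM-B values stood close together and overlapped the highest CTRL library, while every H2A.V library lay below every CTRL library. TIP60 RNAi libraries had 6631, 1818 and 5512 (4653 ± 2519). DOM-A RNAi libraries had 13137, 5622 and 9031 (9263 ± 3763). The lowest library of these groups, TIP60 replicate 2, was above all 9 libraries of the low range. Of all genes tested, 14.8% were higher than CTRL without overlap in TIP60 RNAi and 18.4% in DOM-A RNAi. The DOM-A and TIP60 ranges overlapped, since DOM-A replicate 2 lay below TIP60 replicate 1.

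**Figure D1:**
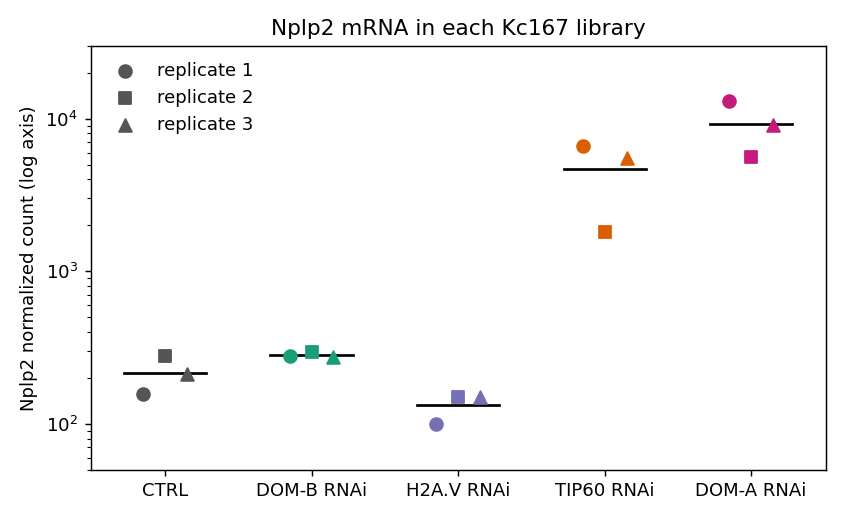
Normalized count of Nplp2 on a log axis in each of the 15 libraries, by RNAi group, with circles, squares and triangles for replicates 1, 2 and 3 and a line at each group mean (n = 3). CTRL, DOM-B and H2A.V RNAi libraries sit between 99.6 and 297, and TIP60 and DOM-A RNAi libraries between 1818 and 13137.

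In the order of group means, H2A.V RNAi was lowest, followed by CTRL, DOM-B, TIP60 and DOM-A RNAi. CTRL and DOM-B RNAi, neighbours in this order, overlapped in their ranges, and so did TIP60 and DOM-A RNAi. The widest gap between neighbours lay between DOM-B and TIP60 RNAi, from 297 to 1818. Per kilobase of exon, and among the 11328 tested genes with an annotated length, the mean level of Nplp2 stood at rank 2688 in CTRL, 2105 in DOM-B RNAi and 3363 in H2A.V RNAi. It stood at rank 126 in TIP60 RNAi and at rank 97 in DOM-A RNAi. The transcript was thus readily detected in CTRL cells, at the 76.3 percentile of genes, and among the most abundant per length in DOM-A RNAi, at the 99.1 percentile. As a share of all D. melanogaster reads it went from 0.00177% in CTRL to 0.0357% in TIP60 RNAi and 0.0706% in DOM-A RNAi.

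Nplp2 had 123 to 318 reads in each library of the low range and 1369 to 9819 in each library of the high range, so that counting error alone (Poisson SD) was between 1.01% and 9.02% of a value. The spread between replicates was larger than this in the high range. Reads from the added D. virilis cells that aligned to Nplp2 would be expected at 1 normalized level in all libraries, and the lowest library limits such a level to 99.6. In bulk RNA, a change in the number of cells of one type and a change in RNA per cell cannot be told apart.

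After TIP60 RNAi, Nplp2 mRNA rose 20.2-fold over CTRL (95% interval 10.6 to 38.3). The log2 fold-change was 4.33 ± 0.431 (SE), with an adjusted p of 1.96e-05 (quasi-likelihood test of edgeR, Benjamini-Hochberg adjustment over 11424 genes), and 4.88% of all genes tested were called higher in this comparison. The log2 difference from the CTRL library of the same number was 5.39, 2.71 and 4.69 in replicates 1, 2 and 3, so the gene was higher in 3 of 3 pairs, as were 24.1% of all genes. With each of the 3 CTRL and 3 TIP60 RNAi libraries left out in turn, the log2 fold-change stayed between 3.98 and 4.81. Of the other genes, 72 had a larger fitted log2 increase, but only 11 of them averaged 100 normalized counts or more over these groups. The absolute gain of Nplp2 was 4438 normalized counts, and 89 genes gained more.

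Over all genes the median log2 fold-change after TIP60 RNAi was -0.04. The target itself was depleted in the TIP60 RNAi libraries: Tip60, the acetyltransferase gene, had normalized counts of 34.5, 42.5 and 46.9 there, which was 13.3%, 17.6% and 17.1% of the CTRL library of the same number. Replicate 2, which had the smallest Nplp2 increase, was close to replicate 3 in residual Tip60 mRNA: slightly above it by this share and below it by normalized count. The part of residual Tip60 mRNA in the spread of Nplp2 was not tested.

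Against H2A.V RNAi, the other group whose difference did not choose the gene, Nplp2 in TIP60 RNAi was higher by a log2 fold-change of 5.04 ± 0.444 (SE), or 32.8-fold (95% interval 16.9 to 63.5). The adjusted p was 6.01e-06 (edgeR, same test), where 16.6% of genes were called higher. The differences of same-numbered libraries were 6.04, 3.59 and 5.18, higher in 3 of 3 pairs, as were 38.6% of all genes.

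H2A.V RNAi did not bring Nplp2 towards the levels of TIP60 RNAi. The log2 fold-change against CTRL was -0.70 ± 0.402 (SE), with a 95% interval from -1.56 to 0.16 and an adjusted p of 0.226 (edgeR, Benjamini-Hochberg), so no change was called. The interval reaches from a marked decrease to a slight increase. Same-numbered libraries differed by -0.65, -0.88 and -0.50, and the groups did not overlap, but in this comparison 42.3% of all genes were lower in 3 of 3 pairs, 29.4% were lower without overlap, and the median over all genes was itself shifted by -0.22. Scaled by the D. melanogaster counts instead, the log2 fold-change of Nplp2 was -0.40. In a fit of these 2 groups alone, whose spread was not shared with the more variable DOM-A and TIP60 RNAi libraries, the log2 fold-change was -0.68 with an adjusted p of 0.00253, which passes the threshold of 0.01. The call on H2A.V RNAi thus depends on which libraries enter the fit. The fit of these groups alone also changed the replicate block and the genes adjusted over. The part of each in the call was not tested. His2Av, which encodes H2A.V, was at 1.96%, 15.8% and 2.65% of the same-numbered CTRL library in the H2A.V RNAi libraries.

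The values that chose the gene were as follows. In DOM-A RNAi the log2 fold-change of Nplp2 against CTRL was 5.35 ± 0.447 (SE), and the same-numbered differences were 6.38, 4.34 and 5.40. In DOM-B RNAi it was 0.37 ± 0.393, with same-numbered differences of 0.83, 0.10 and 0.37, and in a fit of DOM-B RNAi and CTRL alone it was 0.42 ± 0.152. The DOM-B value moved to 0.83 without CTRL replicate 2, the CTRL library with the highest Nplp2 level and the GFP dsRNA. Between DOM-A and DOM-B RNAi the difference was 4.98 ± 0.436, from 4.24 in replicate 2 to 5.55 in replicate 1. The genes next in this order were CG5246 at 4.88, CG14857 at 4.47, CG43175 at 4.31 and CG33460 at 4.25. Nplp2 led CG5246 by less than the standard error of its own difference. The mean normalized count in DOM-A RNAi was 9263 for Nplp2, 425 for CG5246, 334 for CG14857, 267 for CG43175 and 1629 for CG33460. Over all tested genes, 23 had a larger fitted difference between DOM-A and DOM-B RNAi. Of these, fon, which encodes a haemolymph clotting protein, was nearest to being chosen: its difference was 5.01, with means of 296 in DOM-A and 7.63 in DOM-B RNAi, but it averaged 76.7 over all libraries. It was named after its values were seen.

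**Figure D2:**
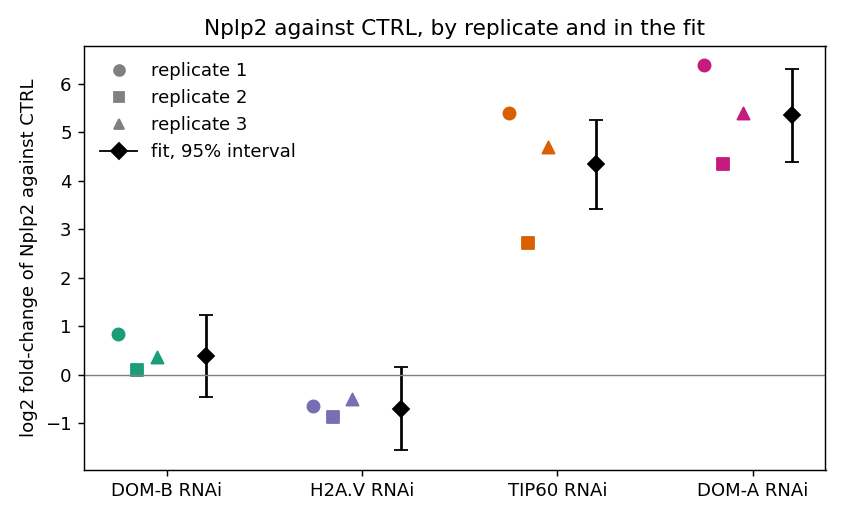
Log2 fold-change of Nplp2 against CTRL for each RNAi group, with coloured symbols for the difference of same-numbered libraries and a black diamond with a bar for the value of the fit over all genes and its 95% interval. The DOM-B and H2A.V intervals include 0, the TIP60 interval runs from 3.41 to 5.26 and the DOM-A interval from 4.39 to 6.31.

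DOM-A and TIP60 RNAi share their CTRL libraries, so the values of both are set side by side. In same-numbered libraries Nplp2 was higher in DOM-A than in TIP60 RNAi by 0.99, 1.63 and 0.71 on the log2 scale, with a fitted difference of 1.02 ± 0.368 (SE, 95% interval 0.23 to 1.80). Since DOM-A RNAi chose the gene, this difference is a description.

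Nplp2 varied more between replicates than most genes did. Over the 6462 genes that averaged 100 normalized counts or more, the SD of log2 values in TIP60 RNAi was 1.01 for Nplp2 and 0.18 for the median gene, and 98.6% of genes had a smaller SD. In DOM-A RNAi the SD of Nplp2 was 0.61, larger than in 94.6% of genes, and in CTRL it was 0.41, larger than in 93.7% of genes. In DOM-B RNAi, by contrast, its SD was 0.06, and 7.43% of genes had a smaller SD. Replicate 2 was the lowest library of Nplp2 in both TIP60 and DOM-A RNAi, at -1.16 and -0.64 from the group mean of log2 values. It was the highest in CTRL, at 0.40 above the mean.

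Most genes of a list that marks blood cells were also higher in TIP60 and DOM-A RNAi, but not in each library. The list held srp, a GATA factor of blood cells, the plasmatocyte genes Hml, Pxn, NimC1 and eater, the scavenger receptor crq, and the collagen IV genes Col4a1 and vkg. All 8 were detected in every group. After TIP60 RNAi 5 of 8 rose and none fell, and after DOM-A RNAi 6 of 8 were called higher and none lower (edgeR, adjusted p under 0.01), where 4.88% and 8.96% of all genes were called higher. In H2A.V RNAi, the group with the lowest Nplp2, 1 of 8 was called higher (1.23% of all genes): Pxn, at a log2 fold-change of 1.35. DOM-A replicate 2 had Pxn at 285 and NimC1 at 59.7, within the CTRL ranges of 165 to 448 and 25.4 to 96.8. Their summed normalized count was 22433 to 27941 in CTRL, 17038 to 36156 in H2A.V, 44293 to 56503 in DOM-B, 29388 to 91189 in TIP60 and 80563 to 94984 in DOM-A RNAi.

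The sum was lowest among the TIP60 RNAi libraries in replicate 2, the library with the lowest Nplp2. Its Hml, which encodes the clotting factor hemolectin, had a normalized count of 16719, against 41790 and 41931 in replicates 1 and 3, and its Col4a1 had 2969, against 24170 and 11699. NimC1, a phagocytosis receptor, was also lowest in replicate 2 but differed less, with 805, 671 and 755 in replicates 1, 2 and 3. It had 25.4 to 96.8 in CTRL. For crq, replicate 3 was lowest, at 1231, 967 and 949 in the same order. The DOM-B RNAi libraries had marker sums above those of CTRL and of TIP60 replicate 2. Their Nplp2 level was 276 to 297, and that of TIP60 replicate 2 was 1818. The sum weights abundant genes most, and Hml alone was 26905 to 31623 in DOM-B RNAi. Against TIP60 replicate 2, each DOM-B library was higher in Hml, Pxn and Col4a1. Each was lower in NimC1, at 52.2 to 137, and srp, eater, crq and vkg were mixed. The part of these markers in the Nplp2 result was not tested.

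**Figure D3:**
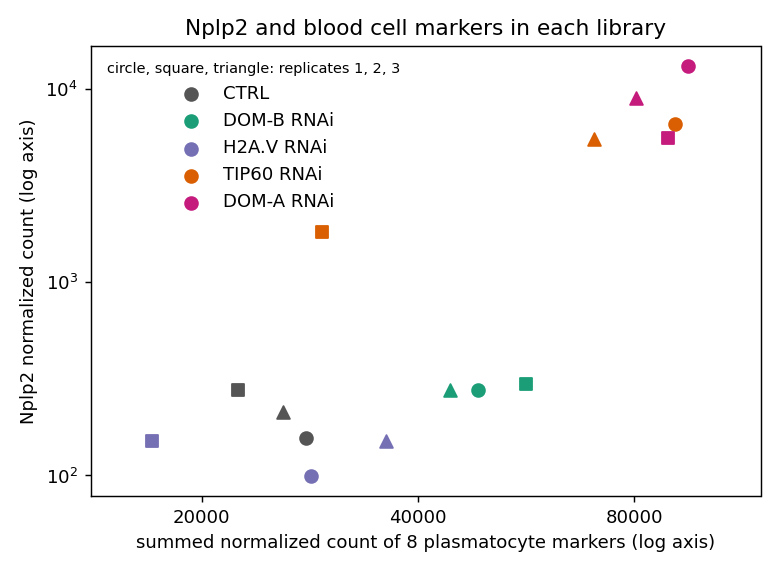
Normalized count of Nplp2 against the summed normalized count of 8 plasmatocyte markers in the 15 libraries, both on log axes, coloured by RNAi group. DOM-B RNAi libraries reach marker sums of 44293 to 56503 with Nplp2 at 276 to 297, and TIP60 replicate 2 has a sum of 29388 with Nplp2 at 1818.

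Markers of crystal cells, the blood cells that make prophenoloxidase, were at low levels. Their sum was higher in all TIP60 and DOM-A RNAi libraries than in the other groups. The sum over PPO1, PPO2, lz and peb was 6.36 to 26.7 in CTRL, 12.1 to 36.6 in H2A.V, 17.7 to 60.5 in DOM-B, 99.7 to 242 in TIP60 and 202 to 435 in DOM-A RNAi. PPO2, which encodes a prophenoloxidase, accounted for much of it in the high groups, with a normalized count of 56.8, 95.6 and 159 in TIP60 RNAi, where replicate 1 was lowest and not replicate 2 as for Nplp2. PPO1 had no read in CTRL. Of these 4 genes, 2 rose after TIP60 RNAi and 3 were called higher after DOM-A RNAi (4.88% and 8.96% of all genes). None was called in DOM-B or H2A.V RNAi (5.07% and 12.7% of all genes). The gene lz was not called in TIP60 or DOM-A RNAi, at 6.48 ± 9.66 (SD) and 7.32 ± 8.08, with 1.97 ± 1.86 in CTRL. Of the 3 lamellocyte markers, 1 rose after TIP60 RNAi and 2 were called higher after DOM-A RNAi (4.88% and 8.96% of all genes). None of the 3 was called in DOM-B RNAi (5.07% of all genes). The surface marker gene atilla had a log2 fold-change of 3.63 after TIP60 and 4.43 after DOM-A RNAi, and the integrin gene ItgaPS4 had 2.83 (not called) and 3.97. PPO3, a prophenoloxidase gene, made up most of the lamellocyte sum, at a mean of 368 in CTRL. It was called lower in H2A.V RNAi, as were 11.5% of all genes. The sum was 289 to 427 in CTRL, 97.1 to 260 in H2A.V, 148 to 409 in DOM-B, 363 to 876 in TIP60 and 365 to 599 in DOM-A RNAi.

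Of the neuron markers, 6 were tested and none was called higher in any group. Of all genes, 4.88% were called higher in TIP60, 8.96% in DOM-A, 2.74% in DOM-B and 1.23% in H2A.V RNAi. A count of none among 6 genes lies near these shares. The neuronal gene elav was called lower in TIP60 RNAi (log2 fold-change -2.25) and in DOM-A RNAi (-1.69), where 8.43% and 10.4% of genes were. The neuron sum was 1548 to 1853 in CTRL, 1293 to 2082 in H2A.V, 1871 to 2236 in DOM-B, 1123 to 1272 in TIP60 and 1125 to 1606 in DOM-A RNAi, so all DOM-B libraries lay above CTRL and all TIP60 libraries below. Of the fat body markers, 3 were tested and none was called higher in any group. For 3 genes this too lies near the shares of all genes. The fat body sum was 74.7 to 103 in CTRL, 34.5 to 59.6 in H2A.V and 35.8 to 50.4 in DOM-B RNAi. It was 20.5 to 34.5 in TIP60 and 20.8 to 33.2 in DOM-A RNAi, so all RNAi groups lay below CTRL. Lsp1beta made up most of the CTRL sum, at a mean of 74.7. It was called lower in TIP60 RNAi (log2 fold-change -1.63) and in DOM-A RNAi (-1.98), as were 8.43% and 10.4% of all genes. Of the 7 fat body markers, 4 were at 0 in CTRL. The part of these cell types in the result was not tested.

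The genes whose levels followed Nplp2 most closely over the 15 libraries were bnl, Idgf6, Nhe1, Ance and CG8839. The measure was Pearson's r of log2(normalized count + 1) over 6461 other genes with a mean of at least 100, and it was 0.97 for bnl and Idgf6 and 0.96 for Nhe1, Ance and CG8839. The libraries fall into a low and a high range, which alone gives high values: 101 genes had r above 0.9 and 93 had r below -0.9, against a median of 0.11. Within the 9 libraries of the low range the r of these 5 genes was 0.51 to 0.79, and within the 6 libraries of the high range 0.75 to 0.87. Each range still holds groups of different means. With the group means taken out, r over the 15 libraries was 0.52 to 0.67. The genes were picked on these same libraries, so all these values are a description. The genes lie on chromosome arms 2L, 2R and 3R, and none is on the arm of Nplp2.

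The size of their changes was much smaller than that of Nplp2. Ance, which encodes a secreted peptidase related to angiotensin-converting enzyme, had normalized counts of 1606, 1541 and 1889 in CTRL, 8053, 2815 and 6844 in TIP60 and 8573, 8896 and 7119 in DOM-A RNAi. Its TIP60 replicate 2 was the lowest of that group, as for Nplp2, but its DOM-A replicate 2 was the highest. Idgf6, a member of the secreted imaginal disc growth factors, had 3082, 3734 and 3082 in CTRL, 9783, 5745 and 8828 in TIP60 and 12357, 13578 and 11242 in DOM-A RNAi. All 5 genes kept the order of the TIP60 libraries seen for Nplp2 except bnl, for which replicate 3 was lowest.

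For bnl, which encodes the FGF ligand of tracheal branching, the log2 fold-change was 0.90 after TIP60 RNAi and 1.32 after DOM-A RNAi. For Nhe1, a sodium/proton exchanger, it was 0.88 and 1.08. CG8839 had 1.26 and 1.61, Idgf6 1.30 and 1.91, and Ance 1.77 and 2.31. The corresponding values of Nplp2 were 4.33 and 5.35. As these genes were picked for their likeness over the same libraries, their differences are given without a test.

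**Figure D4:**
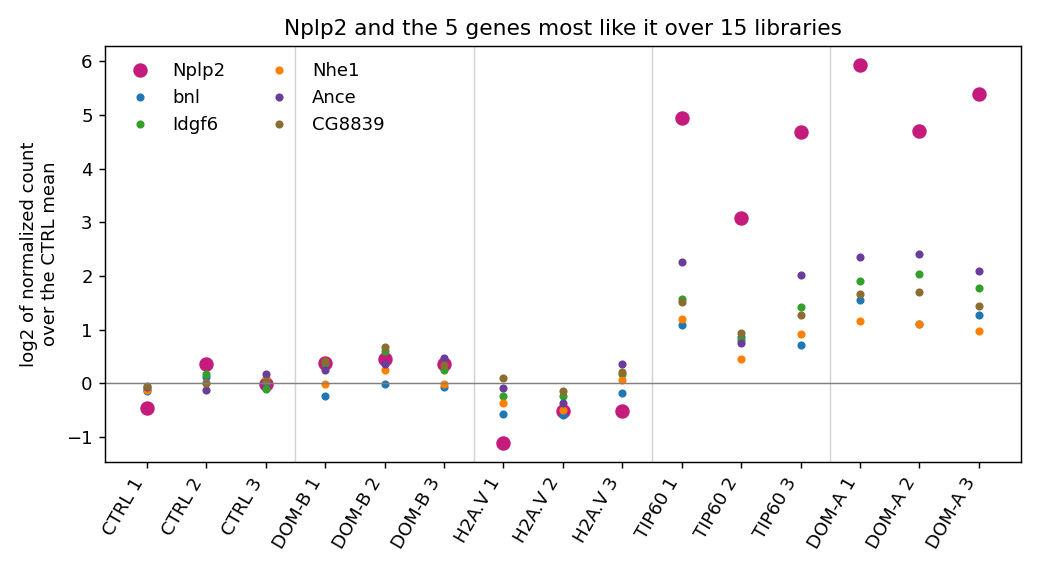
Log2 of the normalized count over the mean of the 3 CTRL libraries, for Nplp2 (large points) and the 5 genes with the highest Pearson r to it, in the 15 libraries by RNAi group. In TIP60 replicate 2 Nplp2 is at 3.08 and the other 5 genes are between 0.45 and 0.93, and in DOM-A replicate 1 Nplp2 is at 5.93 and the others are between 1.16 and 2.35.

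Genes related to Nplp2 by family or function were examined next. Nplp1, another neuropeptide-like precursor, had a mean normalized count of 4.08 in CTRL, 4.20 in TIP60 and 10.4 in DOM-A RNAi and was not called in any comparison with CTRL. Nplp3 and Nplp4 had too few reads to be tested. Of 46 peptide hormone and neuropeptide precursors, 27 were tested, and after TIP60 RNAi 1 rose and 2 fell, where 4.88% of all genes rose and 8.43% fell. Dh44, the diuretic hormone related to corticotropin-releasing factor, rose from 9.51 ± 2.73 to 56.9 ± 14.5 (SD, n = 3), or by 2.56 on the log2 scale (adjusted p 0.00102, edgeR). Orcokinin, a neuropeptide precursor, fell from 389 ± 103 to 103 ± 20.05 (log2 fold-change -1.90, adjusted p 7.05e-06, edgeR). Ptth, the prothoracicotropic hormone that triggers ecdysone synthesis, also fell (-1.23). After DOM-A RNAi Dh44 was again called higher (2.99) and Orcokinin lower (-2.81), so that the precursors differed in direction (8.96% of all genes were called higher and 10.4% lower). The median log2 fold-change of this list was 0.25 after TIP60 RNAi, with -0.04 for all genes. In DOM-B RNAi 1 of 27 was called lower and none higher (2.33% and 2.74% of all genes), and in H2A.V RNAi 2 were called lower and none higher (11.5% and 1.23% of all genes). Ptth was among the lower genes in each, at -1.87 in DOM-B and -2.81 in H2A.V RNAi, and Gpb5, a glycoprotein hormone subunit, was at -1.58 in H2A.V RNAi.

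The enzymes that turn such precursors into active peptides were all tested, and none was called higher. Reads were few for 7B2 (11 over all libraries), Pal2 (34) and amon (52), which were named after their values were seen. At this depth a rise was hard to call: amon was at 1.45 ± 1.04 (SE) after TIP60 and 1.29 ± 1.05 after DOM-A RNAi. After TIP60 RNAi 2 of 8 fell: Fur2, a furin-type protease, by 1.27 on the log2 scale and Pal1, which completes the amidation of peptides, by 0.63, where 8.43% of all genes fell. The same 2 genes were called lower after DOM-A RNAi, at -1.04 and -0.62 (10.4% of all genes). Pal1 was the 1 gene called lower in DOM-B RNAi, at -0.72 (2.33% of all genes), and Fur2, at -0.76, and the carboxypeptidase gene svr, at -0.60, were called lower in H2A.V RNAi (11.5% of all genes).

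Lipid carriers and genes of lipid storage were chosen for the apolipoprotein described from Nplp2, and 17 of 17 were tested. After TIP60 RNAi 1 rose and 1 fell, where 4.88% of all genes rose and 8.43% fell: mdy, a diacylglycerol acyltransferase that makes triglyceride, went from 188 ± 71.5 to 668 ± 106 normalized counts (log2 fold-change 1.87, adjusted p 6.76e-06, edgeR), and the fatty acid binding protein gene fabp changed by -0.83. After DOM-A RNAi 3 were called higher and 3 lower, with 8.96% and 10.4% of all genes. The higher genes were mdy at 1.78, the lipophorin receptor gene LpR1 at 0.91 and the hormone-sensitive lipase gene Hsl at 0.60. The lower ones were Lpin at -1.05, which encodes a phosphatidate phosphatase, fabp at -0.88 and Lsd-1 at -0.82, a lipid droplet perilipin. Apoltp, a lipid transfer particle apolipoprotein, was the only gene of the list called in DOM-B RNAi, at 3.71, and Lsd-1 the only one in H2A.V RNAi, at -0.83. Of the secreted immune- and stress-induced peptides, only 4 of 24 had enough reads. TotA, a stress-induced humoral peptide, was called higher in DOM-A RNAi (log2 fold-change 4.13), but at a mean normalized count of 12.7 there and 0.61 in CTRL; it was named after its values were seen.

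Over these lists together, without Nplp2, 57 of 98 genes were tested, and 2 were higher and 5 lower after TIP60 RNAi, or 7 called where 13.3% of all genes were called. After DOM-A RNAi 5 were higher and 6 lower (11 called, with 19.4% of all genes). After DOM-B RNAi 1 was higher and 2 lower (3 called, with 5.07% of all genes), and after H2A.V RNAi none was higher and 5 were lower (with 12.7% of all genes). The shares of the lists were near those of all genes, or in H2A.V RNAi below. Fitted log2 fold-changes in the lists reached 3.96 after TIP60 RNAi and 4.13 after DOM-A RNAi, below the 4.33 and 5.35 of Nplp2. These values rest on few reads and are no bound. The 3.96 is that of AstCC, which had 13 reads over all libraries and 0 in CTRL and was not called. The 4.13 is that of TotA, at 0.61 in CTRL. AstCC was named after its values were seen, and the 5.35 of Nplp2 chose the gene.

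**Figure D5:**
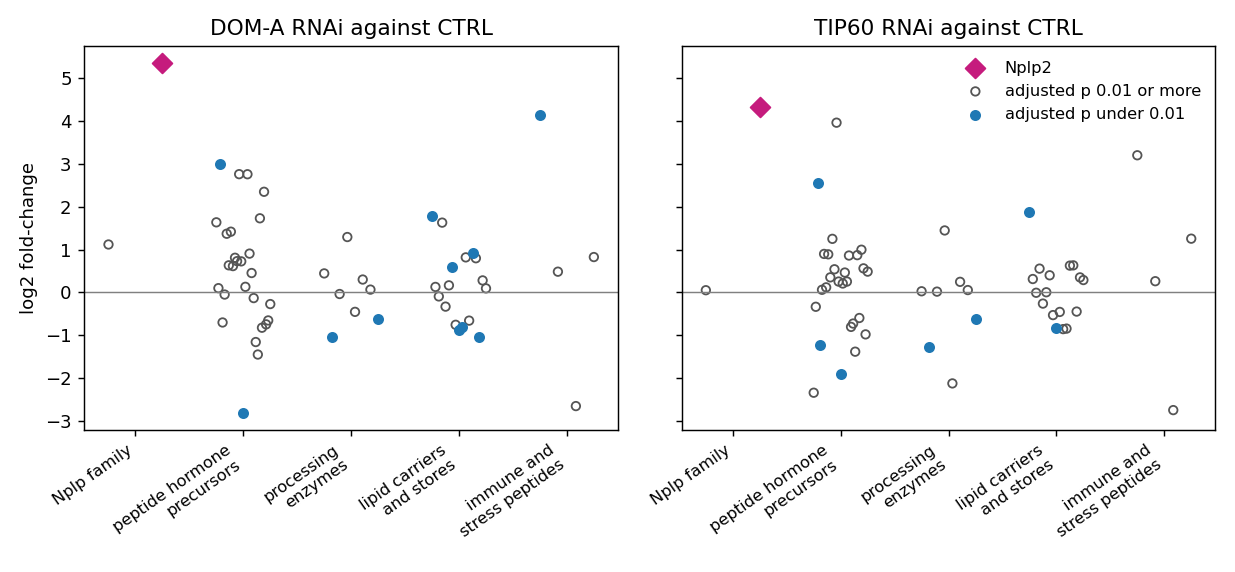
Log2 fold-change against CTRL of each tested gene in 5 lists after DOM-A RNAi (left) and TIP60 RNAi (right), with filled circles for an adjusted p under 0.01 in edgeR and a diamond for Nplp2, which in the DOM-A comparison was chosen by its value. Nplp2 is at 5.35 and 4.33, above every other gene of the lists, some of which had few reads.

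The neighbours of Nplp2 on the chromosome had few or no reads in all groups. CG17687, whose annotated end lies 1436 nt before the start of Nplp2, had 23 reads over the 15 libraries and at most 6 in a library. It had 0 reads in CTRL, 1 to 6 in DOM-A RNAi and 1 to 4 in TIP60 RNAi, and its fitted log2 fold-changes of 4.67 and 4.86, which rest on these few reads against 0 and are no bound, were not called (adjusted p 0.0113 and 0.0112, edgeR). Of the next genes on that side, lncRNA:CR44559 at 12126 nt had 2 reads in all and CG14113 at 26677 nt had none. Beyond the end of Nplp2, CG14111 at 20734 nt had 1 read, and SNCF at 21360 nt and asRNA:CR45886 at 21919 nt had none.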

How the data were processed

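The authors aligned reads from poly(A)-selected, directional libraries with STAR 2.5.3a to the D. melanogaster genome and, separately, to the D. virilis genome, kept uniquely mapped reads and deposited counts per gene that are neither filtered nor normalized. The counts on the gene's strand were used. Nplp2 was identified through a supplementary table of the study that pairs its identifier with its name, because the reference lists Nplp2 under a newer identifier. Its position and transcripts come from that newer annotation, and the counted gene model may differ. For the other genes, 17343 of 17481 identifiers matched.

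Genes with at least 1 read in 6 libraries were tested (11424 in D. melanogaster). Median-of-ratios size factors from 8941 D. virilis genes (0.624 to 1.39) set the library sizes. All 15 libraries entered one quasi-likelihood fit in edgeR 4.0.16 (limma 3.58.1, R 4.3.3) with the replicate number as a covariate, as in the study's methods, and a threshold of 0.01 on the Benjamini-Hochberg adjusted p. Intervals are 95% intervals of the fit, and a pseudocount of 1 was used for single libraries. DESeq2 1.42.0, other size factors, filters, strands, designs and omitted libraries were alternatives. The scripts were tested on simulated data.

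Libraries held 8662976 to 14679536 D. melanogaster gene reads and 14.9% to 17.9% D. virilis reads. Rows that name no gene took 4.74% to 6.99% and were left out. Replicates differed beyond counting noise in every group (chi-square per degree of freedom 19.9 to 106). The labels call them biological replicates, and p-values measure the spread between them. Reads for dom are pooled over its isoforms and do not check DOM-A or DOM-B RNAi.

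Nplp2, the gene lists and the tests were chosen with earlier results of these data known. Named genes were Nplp2, its family, up to 4 genes per list with the largest called change and a mean of at least 10 normalized counts, the 5 genes most like Nplp2, 3 neighbours on each side and the targeted genes. Marker genes were fixed lists. No sequences were used here.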

Additional observations from a re-analysis of the deposited data

Results flagged for a closer look

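Reads on the strand opposite to Nplp2, which the comparisons do not use, numbered 31 over the 3 DOM-A RNAi libraries and 14 over the 3 TIP60 RNAi libraries, and 0 in CTRL, DOM-B and H2A.V RNAi. Relative to the reads on the gene's own strand this was 0.129% in DOM-A and 0.0990% in TIP60 RNAi. In CTRL, 0 of 633 reads allow a share of up to 0.474% (3 counts, counting error only), so a difference in the share was not detectable at this depth. Over all genes the opposite strand held 2.65% to 3.31% of the reads of a library.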

How the results depend on the processing

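The log2 fold-change of Nplp2 after TIP60 RNAi stayed between 4.20 and 4.43 under the alternatives that kept all libraries of the groups compared. It stayed between 3.98 and 4.81 with single libraries left out, and the call was kept in each. Without the replicate block it was 4.43 (adjusted p 2.37e-05). For TIP60 against H2A.V RNAi the ranges were 4.70 to 5.12 and 4.69 to 5.50. For H2A.V RNAi against CTRL, the fit of these groups alone gave -0.68 and passed the threshold (adjusted p 0.00253 in edgeR), and leaving out single libraries gave -0.997 to -0.24 without a call. The untested DOM-B value was 0.084 to 0.83 with single libraries left out. The DOM-A value was 5.03 to 5.77, and DOM-A against DOM-B 4.65 to 5.22.

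The number of list genes called depended more on the settings. In DOM-B RNAi it was 3, against 7 with DESeq2, 5 with size factors of the D. melanogaster counts, 5 with no filter, 1 with no replicate block, 9 with only these groups, 6 with TMM and 0 to 4 with single libraries left out (0 without CTRL replicate 1). In H2A.V RNAi it was 5, against 2 with unstranded counts, 2 with size factors of the D. melanogaster counts, 1 with no replicate block, 11 with only these groups, 3 with TMM, 2 with total D. virilis counts and 2 to 6 with single libraries left out. In TIP60 RNAi it was 7, and 4 to 7 with single libraries left out (4 without CTRL replicate 3 or TIP60 replicate 2). In DOM-A RNAi it was 11, and 8 to 13 under all alternatives run. The causes were not tested. Of the 5 genes most like Nplp2, 4 were shared under each alternative.

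Same-numbered libraries deviated together only in part (mean r across genes 0.219 over 30 pairs, 0.0401 to 0.442). Over 60 other pairs the mean r was -0.109. Deviations were taken from the group means, which ties this value to the first, so it is no separate result. With 3 libraries a group, the interval for H2A.V RNAi includes both a decrease and no change.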
